A study of Mus musculus with 6 samples.

Results

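The neuronal identity microRNAs (miRNAs) described here are those named mmu-miR-9, mmu-miR-124, mmu-miR-128, mmu-miR-129, mmu-miR-137, mmu-miR-138, mmu-miR-149, mmu-miR-153, mmu-miR-218 and mmu-miR-488. They were chosen by name alone, with every arm, gene copy and length variant kept, which gave 22 of the 1080 small RNA entries (754 of them mouse-named). Small RNA was sequenced from N2A (Neuro2A) cells, a line from a mouse neuroblastoma that the labels give as neuroblasts of brain. The control group, si-NC, had 3 libraries made after transfection of a control siRNA. The other group, si-circCpsf6, also had 3, made after transfection of an siRNA named for the circular RNA circCpsf6. Both siRNAs were delivered with the same lipid reagent at 100 nM, so the control cells were transfected too. Values are the authors' normalized read numbers, which are whole, and are always listed in the order of replicates 1, 2 and 3, si-NC first. The level of circCpsf6 was not analysed here, and nothing in the labels says that the libraries came from separate cultures, so the spread between them may be technical, and p-values measure that spread only.

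A miRNA is cut from a hairpin precursor, from either the 5p or the 3p side, and one arm usually accumulates. Bases 2 to 8 of the mature strand, its seed, choose the messenger RNAs that it represses. miR-124 is the miRNA most closely tied to neurons, where it holds down transcripts of non-neuronal genes, and miR-9 acts in neural progenitors and in neurons. Several of the others lie in introns of protein-coding genes, and whether they are made with those genes was not examined here. N2A cells are often used because they can be driven to grow neurites.

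The mature sequences of the most abundant arm of 8 families are shown because the seeds tell whether families share a type of target site. No targets were examined, so different seeds do not show that the targets differ. Sequences are from RefSeq (GRCm38.p6), with the seed in capitals, and 19 of the 22 entries matched a RefSeq mature sequence by name.
miR-218-5p: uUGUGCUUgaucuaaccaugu
miR-137-3p: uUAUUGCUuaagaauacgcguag
miR-138-5p: aGCUGGUGuugugaaucaggccg
miR-488-3p: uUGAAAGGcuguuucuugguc
miR-149-5p: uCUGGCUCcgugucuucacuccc
miR-128-3p: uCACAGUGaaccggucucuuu
miR-153-3p: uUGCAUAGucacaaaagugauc
miR-9-5p: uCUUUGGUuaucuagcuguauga
Among the 19 entries with a sequence, no seed is shared between families. No other listed mouse miRNA has the same bases 2 to 8, in its RefSeq form, as any of the 19. That form was found for 592 of the 754 mouse-named entries. Both miR-124 entries and miR-129-1-3p had no sequence and were not compared. Only abundant mouse entries with a RefSeq sequence, members aside, were searched for a member's seed at a shifted position. The seed stood 1 base off in a few cases. That of miR-488-3p starts at base 1 of miR-471-3p, which was listed at 1184 to 2806. That of miR-128-3p, CACAGUG, starts at base 3 of miR-27a-3p and of the more abundant miR-27b-3p, where the capitals mark it.
miR-27b-3p: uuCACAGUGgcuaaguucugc
Across the 6 libraries miR-27b-3p was listed at 188459 to 366138, miR-27a-3p at 16853 to 36400 and miR-128-3p at 2549 to 3123.

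The 3p arms of miR-218 and miR-138 tell their gene copies apart, while the 5p arm is the same from either copy, and these are the other sequences that the results use.
miR-218-1-3p: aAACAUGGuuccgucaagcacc
miR-218-2-3p: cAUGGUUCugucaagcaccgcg
miR-138-1-3p: cGGCUACUucacaacaccaggg
miR-138-1-3p without its first 2 bases: gCUACUUCacaacaccaggg
miR-138-2-3p: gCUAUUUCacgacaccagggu
The entry for miR-138-1-3p carries the suffix L-2R+1, read here as 2 bases fewer at the 5′ end and 1 more at the 3′ end than the reference. In that form its seed is CUACUUC rather than GGCUACU. The suffix of miR-153-5p, L-1, is read in the same way as 1 base fewer at its 5′ end.

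The hairpins are scattered over the genome (GRCm38.p6 positions, with genes from GENCODE M21; the authors' build was mm9 per the submitters' processing notes). The miR-218 copies lie in introns of Slit2 (chromosome 5, 48223942 to 48224051) and Slit3 (chromosome 11, 35616816 to 35616925), genes for axon guidance ligands, on the same strand. miR-128 has a copy in an intron of R3hdm1 (chromosome 1, 128202361 to 128202430) and another in an intron of Arpp21 (chromosome 9, 112118636 to 112118711). Intronic too, and on the strand of the host gene, are miR-149 in Gpc1, a heparan sulfate proteoglycan gene (chromosome 1, 92850378 to 92850443), and miR-488 in Astn1, which encodes a protein of neuronal migration (chromosome 1, 158505625 to 158505733). miR-153 lies in an intron of Ptprn2, a gene of secretory vesicles (chromosome 12, 117250817 to 117250885). miR-137 overlaps an exon of the transcript Gm26871 (chromosome 3, 118433857 to 118433929). The miR-138 copies overlap exons of Gm47135 (chromosome 9, 122682876 to 122682974) and C78859 (chromosome 8, 94324311 to 94324381).

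The libraries themselves differed in ways that touch every entry below. Listed values summed to 2570449 to 3268351 per library, and since they are normalized, the read depth is unknown. In si-NC replicate 3 just 16 of 1080 entries had a value between 1 and 18, against 180 to 312 in the other libraries, and 578 entries had a value of 1 or more, against 747 to 880. An entry listed at 0 there is therefore not shown to be absent, and 3 of the 22 neuronal entries were at 0 in it. One entry, miR-128-1-5p, was at 0 in si-circCpsf6 replicate 3, and none was at 0 in the other 4 libraries.

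Mean levels of the neuronal entries ran from 10.2 for miR-124-5p to 20672 for miR-218-5p, and miR-124 and miR-9, the best known of them, were not among the abundant ones. Mature lengths were 21 to 23 bases, so read numbers of different miRNAs are compared without a length correction, although ligation during library making can favour some sequences. miR-218-5p, known from motor neurons, held the highest mean, followed by miR-137-3p, a regulator of neural differentiation. With rank 1 the most abundant of the 754 mouse-named entries by mean, miR-218-5p stood at rank 41 and miR-137-3p at rank 64. Next came miR-138-5p, which limits dendritic spine size, at rank 76, and then miR-488-3p, miR-149-5p and miR-128-3p at ranks 78, 97 and 126. miR-153-3p, which targets synaptic vesicle genes, was at rank 224, miR-124-3p at 255 and miR-9-5p at 325. All 3 miR-129 entries lay at rank 421 or below.

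In that order the neighbours were not all separated. miR-218-5p exceeded miR-137-3p in 6 of 6 libraries and miR-137-3p exceeded miR-138-5p in 5. miR-138-5p and miR-488-3p could not be ordered, each being the higher in 3 libraries. The lowest miR-149-5p value (3836) lay above the highest of miR-128-3p (3123), and the lowest miR-128-3p value (2549) above the highest of miR-153-3p (1640). miR-124-3p exceeded the minor arm miR-218-2-3p in 4 of 6 libraries.

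**Figure D1:**
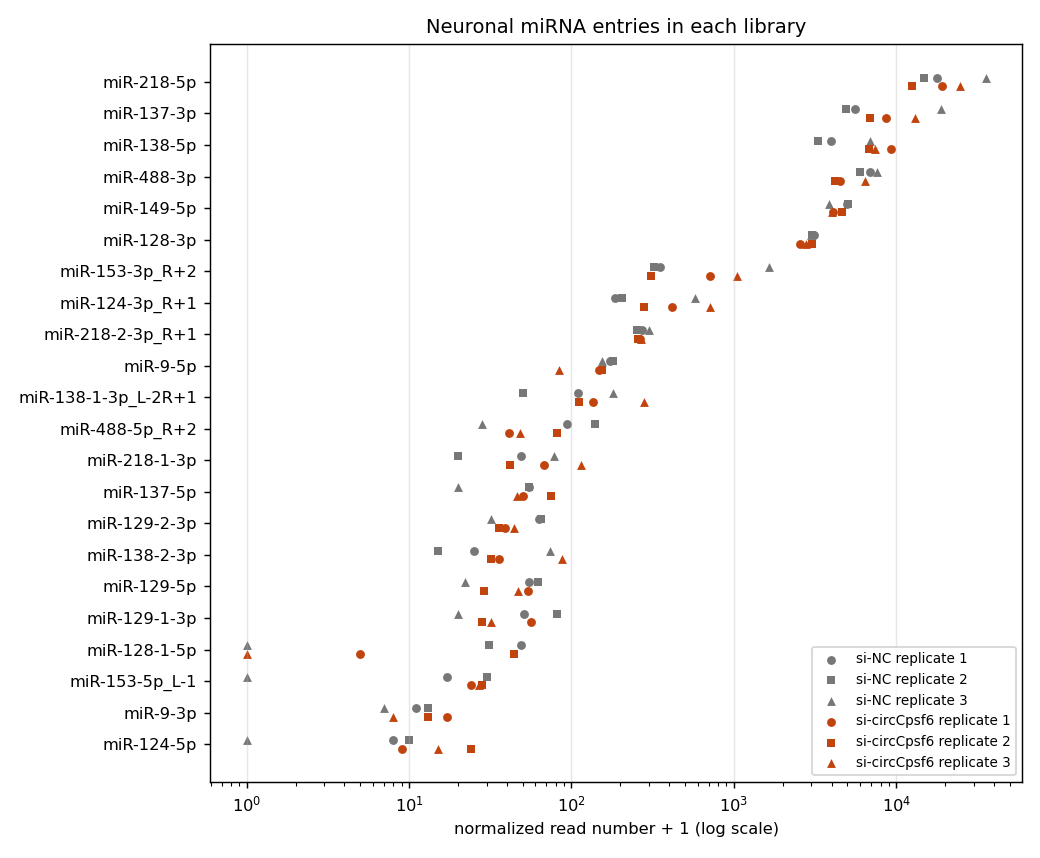
Normalized read number plus 1 (horizontal log axis) of the 22 neuronal miRNA entries (rows, ordered by mean) in each of 6 libraries; grey is si-NC, orange si-circCpsf6, and the marker shape gives the replicate number. miR-218-5p lies highest, between 12454 and 35424, and triangles (replicate 3) often lie at the edge of their group.

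The neuroblast label was set beside marker miRNAs, whose presence alone cannot check it. All 5 miRNAs set as neuronal markers (miR-124, miR-9, miR-137, miR-138 and miR-218) had their main arm above 0 in all 6 libraries. The same held for non-neural markers such as miR-143-3p, miR-145a-5p and miR-126a-3p. Of 25 names set as markers of muscle, liver, blood, endothelium, smooth muscle, epithelium and embryonic stem cells, 13 had an entry. Most of their sum came from miR-143-3p, a smooth muscle and fibroblast miRNA, at 57213 to 89458, above every neuronal entry here. miR-145a-5p, at 7067 to 14022, had a higher mean than any neuronal entry but miR-218-5p. The other brain-associated miRNAs described below summed to 155416 to 505084 per library, mostly from miR-7a-5p and miR-7b-5p. In every library this was above the sum of the 13 names. The summed value of the 13 names ran from 72030 to 109390 in si-NC and from 82460 to 109844 in si-circCpsf6. The groups overlapped, and the part of this sum in the results was not tested. Of the 15 tested entries under these names 6 were higher and 9 lower in si-circCpsf6. In limma 0 passed, with 3 at an unadjusted p under 0.05, beside 6.22% of all 916 entries. The groups did not overlap for 3 of the 15 (20%), against 11.7% of the 916. The 6 higher entries, of miR-143, miR-145a and miR-126a, changed by 0.03 to 0.41 on the log2 scale. The 5 epithelial entries, of the miR-200 family, were low and had lower means after si-circCpsf6, with log2 changes of -3.71 for miR-200a-3p, -2.17 for miR-200b-3p, -2.06 for miR-200c-3p, -3.64 for miR-429-3p and -2.60 for miR-141-3p. They supplied all 3 of those unadjusted p-values (miR-200a-3p, miR-200c-3p and miR-429-3p), with adjusted p-values of 0.459, 0.576 and 0.364. miR-200a-3p was at 69, 141 and 58 with si-NC against 25, 9 and 0 with si-circCpsf6, and miR-429-3p at 19, 23 and 27 against 6, 0 and 0, both without overlap. miR-126a-3p, of endothelium, was at 2869 to 4301, near miR-128-3p. The muscle miRNAs miR-1a-3p and miR-133a-3p stood at 32 to 112 and 6 to 20, and miR-122-5p, of liver, was at 0 in 5 libraries and at 5 in the other. In bulk samples such as these, fewer cells of a type and less of a miRNA per cell cannot be told apart.

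Between the groups, none of the 22 neuronal entries passed the test. limma on log2(value + 1), adjusted by the Benjamini-Hochberg method over all entries tested, gave adjusted p-values from 0.720 to 1.00 for them. Across all entries, 0 of 916 entries passed (0.00%), and 57 (6.22%) had an unadjusted p under 0.05, of which 1, miR-138-5p, is a neuronal entry. Of the 22, 11 had a higher and 11 a lower mean log2 value after si-circCpsf6 (median change 0.05), beside 510 higher, 406 lower and a median of 0.09 over all 916. Non-overlapping groups were found for 1 of 22 (4.55%), against 107 of 916 (11.7%). Neither share of the neuronal entries is above the background.

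miR-138-5p had the largest difference among the abundant members. It was listed at 3989, 3287 and 6930 with si-NC against 9257, 6776 and 7435 with si-circCpsf6. The groups overlapped through si-NC replicate 3 alone, which lay above the lowest si-circCpsf6 library, while the other si-NC libraries lay well below. The log2 change was 0.79 (SE 0.33, 95% interval 0.04 to 1.53), with a limma p of 0.0416 before adjustment and 0.720 after it. Both minor arms leaned the same way without passing. miR-138-1-3p was at 108, 49 and 178 with si-NC against 135, 111 and 277 with si-circCpsf6, and miR-138-2-3p stood at 24, 14 and 73 against 35, 31 and 87. Their log2 changes were 0.71 (SE 0.61) and 0.62 (SE 0.81), with adjusted p-values of 0.884 and 0.945. Entries named after miR-138 of other species were small, at 0 to 12 for the cattle name and 0 to 19 for the armadillo name, so little of the miR-138-5p signal was listed elsewhere. With array weights per library, which gave si-NC replicate 3 a weight of 0.146, miR-138-5p passed in limma (log2 change 1.14, adjusted p = 0.0217). That setting raised calls across the table, with 31 of 916 entries passing and 210 at an unadjusted p under 0.05. Without si-NC replicate 3 the miR-138-5p change was 1.10 and its adjusted p 0.124. Over all alternatives its adjusted p ran from 0.0217 to 0.979.

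miR-488-3p and miR-9-5p had lower means in si-circCpsf6, and neither difference passed. miR-488-3p was at 6916, 6001 and 7572 with si-NC against 4520, 4204 and 6428 with si-circCpsf6. Only si-circCpsf6 replicate 3 reached into the si-NC range. The log2 change was -0.45 (SE 0.26, 95% interval -1.06 to 0.15, adjusted p = 0.735). miR-9-5p, whose targets include the repressor of neuronal genes Rest, was at 172, 180 and 154 with si-NC against 147, 153 and 83 with si-circCpsf6. This is the entry whose groups did not overlap, and they were 1 normalized read apart. Its log2 change was -0.45 (SE 0.43, 95% interval -1.42 to 0.53, adjusted p = 0.904). The other arm, miR-9-3p, was at 10, 12 and 6 against 16, 12 and 7, too low to order the groups.

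miR-128-3p, miR-149-5p and miR-218-2-3p varied least. miR-128-3p, which tunes neuronal excitability, was at 3123, 3005 and 3003 with si-NC against 2549, 3012 and 2794 with si-circCpsf6, a log2 change of -0.13 (95% interval -0.66 to 0.40, adjusted p = 0.962). miR-149-5p was at 4940, 5052 and 3836 against 4050, 4621 and 4025, a change of -0.12 (95% interval -0.67 to 0.44, adjusted p = 0.977). miR-218-2-3p was at 271, 252 and 301 against 265, 257 and 268, a change of -0.06 (95% interval -0.79 to 0.68, adjusted p = 0.992). In each of them the groups overlapped, and the intervals still admit changes of the size given by their ends.

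The high-level members miR-218-5p and miR-137-3p, with miR-153-3p and miR-124-3p, had their highest values in the libraries numbered 3 of both groups. miR-218-5p was at 17687, 14739 and 35424 with si-NC against 19034, 12454 and 24693 with si-circCpsf6. miR-137-3p was at 5588, 4933 and 18757 against 8660, 6868 and 12964. miR-153-3p was at 348, 319 and 1640 against 711, 308 and 1050. In all 3 the highest library was si-NC replicate 3, the next was si-circCpsf6 replicate 3, and the groups overlapped. miR-124-3p was at 183, 203 and 572 with si-NC against 412, 279 and 711 with si-circCpsf6, with the same 2 libraries on top in the other order.

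None of these 4 had a difference that passed, and 1 library moved each of them. The log2 changes were -0.22 for miR-218-5p (SE 0.40, adjusted p = 0.965), 0.19 for miR-137-3p (SE 0.51, adjusted p = 0.992), 0.11 for miR-153-3p (SE 0.70, adjusted p = 0.992) and 0.65 for miR-124-3p (SE 0.54, adjusted p = 0.884). Without si-NC replicate 3 they were 0.16, 0.80, 0.88 and 1.17. For miR-137-3p and miR-153-3p the ratio of group means went the other way from the log2 change, with means of 9759 ± 7799 and 9497 ± 3133, and of 769 ± 754 and 689.7 ± 371 (mean ± SD, n = 3 per group, si-NC first).

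**Figure D2:**
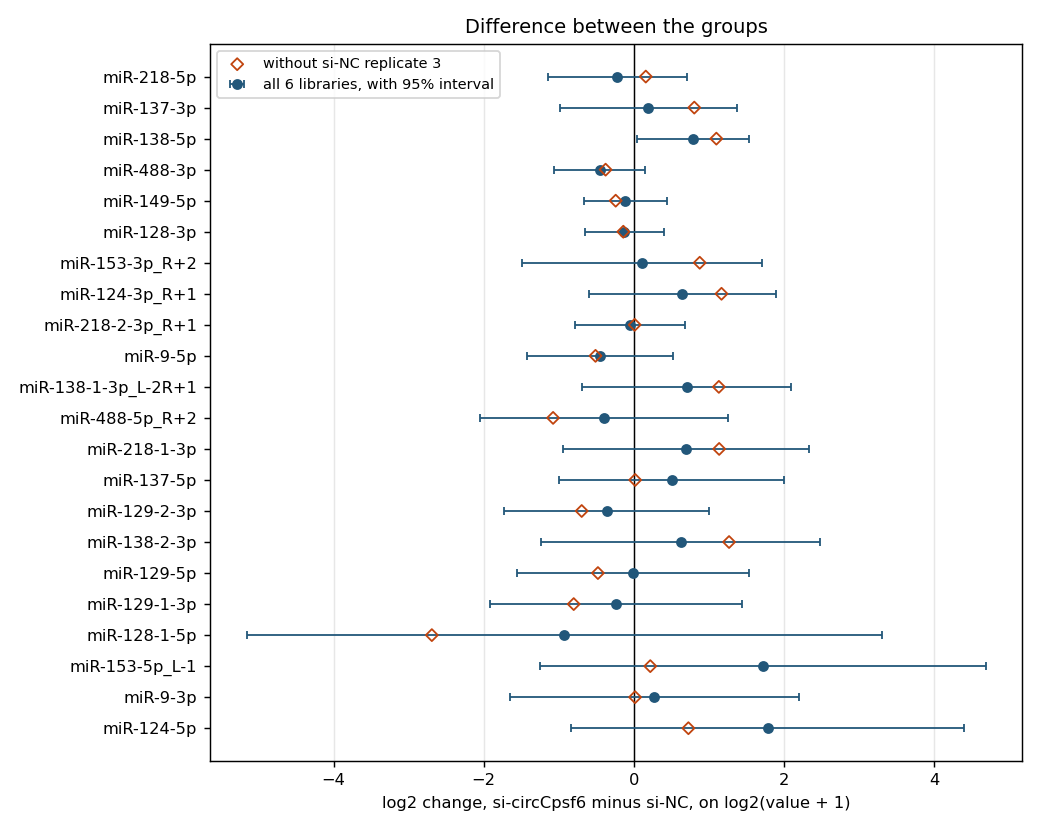
Log2 change (horizontal axis, si-circCpsf6 minus si-NC on log2(value + 1)) of the 22 neuronal miRNA entries (rows); filled points with bars are the limma estimates and 95% intervals from all 6 libraries, open diamonds the estimates without si-NC replicate 3. The interval of miR-138-5p alone leaves out 0 (0.04 to 1.53, before adjustment), and the diamonds of miR-137-3p and miR-153-3p lie at 0.80 and 0.88.

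Every neuronal entry had si-NC replicate 3 at an end of its group. si-NC replicate 3 was the highest of the si-NC libraries for 10 of the 22 and the lowest for the other 12, or 100% of them, against 75.8% of all 916 tested entries and 91.4% of the 373 with a mean of 100 or more. It stood above the mean of the other si-NC libraries by 2.30 on the log2 scale for miR-153-3p, 1.84 for miR-137-3p, 1.56 for miR-124-3p and 1.13 for miR-218-5p. For miR-128-3p the difference was -0.03. si-circCpsf6 replicate 3 departed from its own group in the same direction for these 4, by 1.16, 0.75, 1.07 and 0.68 in the same order. Over the 11 neuronal entries with a mean of 100 or more, both of these libraries stood above their groups for 7, both below for 2, and they went opposite ways for 2 (Pearson r = 0.81 across entries, which share these libraries and their normalization). The same r was 0.73 over the 275 tested mouse entries at that level with a RefSeq sequence. GC content and the departure of si-NC replicate 3 had r = -0.42 over those 275. Over the 541 tested mouse entries of any level with a sequence r was -0.34. Over the 19 neuronal entries with a sequence it was -0.25. These 19 include miR-128-1-5p (66.7% GC) and miR-153-5p (43.5% GC), both listed at 0 in that library, with departures of -5.28 and -4.50. The value of r without them was not computed, so no relation among the neuronal entries is read from it. With each library's trend on GC content removed, an alternative added after the data were seen, 0 of 19 neuronal entries passed, 9 were higher and 10 lower.

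**Figure D3:**
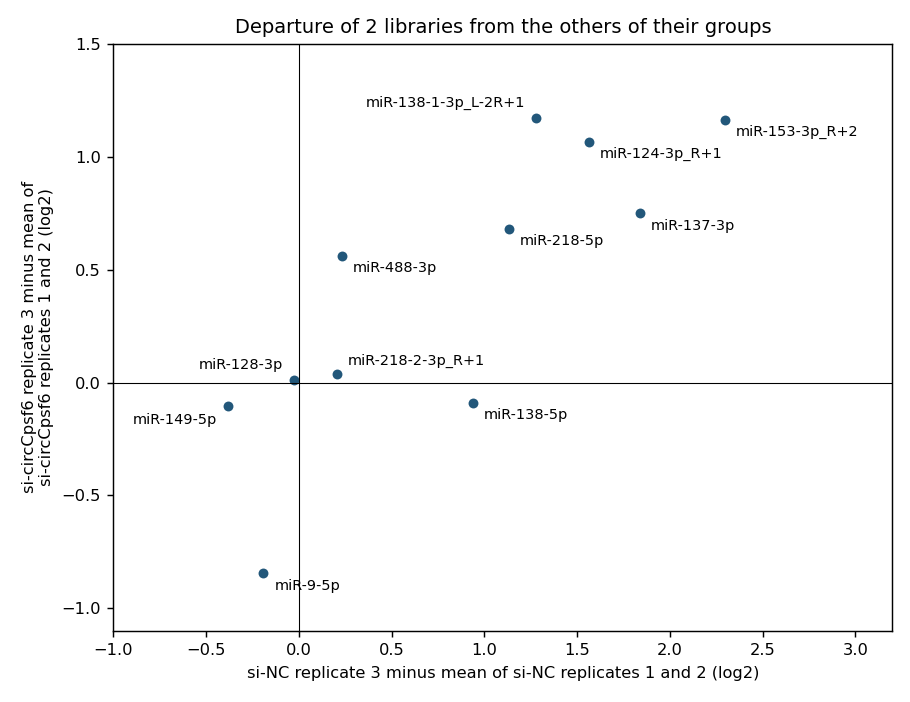
Departure of si-NC replicate 3 (horizontal axis) and si-circCpsf6 replicate 3 (vertical axis) from the mean of the other libraries of their group, on log2(value + 1), for the 11 neuronal entries with a mean of 100 or more (1 point each). miR-153-3p, miR-137-3p, miR-124-3p and miR-218-5p lie above 0 on both axes, miR-128-3p near the origin and miR-9-5p below on both.

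Summed over all 22 entries, the neuronal miRNAs made up 1.44%, 1.32% and 3.06% of the listed values with si-NC against 1.74%, 1.21% and 2.12% with si-circCpsf6. The sums were 43791, 38530 and 78640 with si-NC against 50128, 39464 and 61187 with si-circCpsf6, and the groups overlapped. miR-218 and miR-137 held 59.0% of the sum. The mean in si-circCpsf6 was 0.937 of that in si-NC, or 1.22 without si-NC replicate 3.

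Each of the 9 families with both arms listed had the same leading arm in all 6 libraries when every entry of an arm was counted, and in 8 of them that arm dominated strongly. The 3p arm dominated in miR-137 (196-fold by the means over 6 libraries), miR-128 (140-fold), miR-488 (83.9-fold), miR-124 (38.7-fold) and miR-153 (36.2-fold). For miR-128 this sets a 3p arm of either gene copy against miR-128-1-5p alone, since no miR-128-2-5p entry was listed. miR-128-1-5p was at 0 in both libraries numbered 3. The 5p arm dominated in miR-218 (76.8-fold over miR-218-2-3p), miR-138 (43.9-fold over miR-138-1-3p) and miR-9 (14.1-fold). With both 3p entries summed, the 5p arm led 62.7-fold in miR-218 and 33.6-fold in miR-138. In miR-129, enriched in brain, the arms were closest, with means of 43.8 for the 5p arm, 45.5 for miR-129-2-3p and 43.7 for miR-129-1-3p. The 5p arm was at 54, 61 and 21 with si-NC against 53, 28 and 46 with si-circCpsf6 (log2 change -0.01, SE 0.67). miR-129-2-3p was at 62, 64 and 31 against 38, 35 and 43 (-0.36, SE 0.60). Both 3p entries together came to 112, 144 and 50 against 93, 62 and 74, above the 5p arm in 6 of 6 libraries by 1.61-fold to 2.38-fold. The 5p arm can come from either gene copy, so its level beside a single 3p entry does not give the balance of arms. For miR-149 the 5p arm alone was among the entries analysed.

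No difference in arm use between the groups passed the test. The log2 ratio of the 3p to the 5p arm was tested with limma in 226 hairpin families, of which 0 passed (0.00%) and 6 (2.65%) had an unadjusted p under 0.05. Of the 9 neuronal families with both arms, 0 passed and 0 had an unadjusted p under 0.05, with adjusted p-values of 0.998. The log2 change of the ratio ran from -1.61 (SE 1.89) for miR-153 to 0.80 (SE 1.87) for miR-128. The minor arm of miR-153 was at 0 in si-NC replicate 3 alone, and without that library its change was 0.66 (SE 0.67), of the opposite sign. The minor arm of miR-128 was at 0 in both libraries numbered 3, and its change without si-NC replicate 3 was 2.55 (SE 1.49). The changes of miR-124, miR-137, miR-138, miR-218 and miR-488 also took the other sign without si-NC replicate 3, among them miR-124 from -1.13 to 0.44. Among the 8 neuronal families whose most abundant entries per arm differed at least 2-fold, the ratio of that arm to the other was largest in si-NC replicate 3 for 7 and in si-circCpsf6 replicate 1 for 1, miR-138. Over all 195 hairpins whose arms differed by at least 1 on the log2 scale, it was largest in si-NC replicate 3 for 37.9%. Low values are scarce in that library, as given above, and it listed miR-124-5p, miR-128-1-5p and miR-153-5p at 0; their part in these ratios was not tested. miR-124-5p was at 7, 9 and 0 with si-NC against 8, 23 and 14 with si-circCpsf6. miR-153-5p was at 16, 29 and 0 against 23, 27 and 26. miR-128-1-5p was at 48, 30 and 0 against 4, 43 and 0. In each the groups overlapped. Their log2 changes of 1.78 (SE 1.14), 1.72 (SE 1.29) and -0.93 (SE 1.84) became 0.73, 0.22 and -2.69 without si-NC replicate 3.

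**Figure D4:**
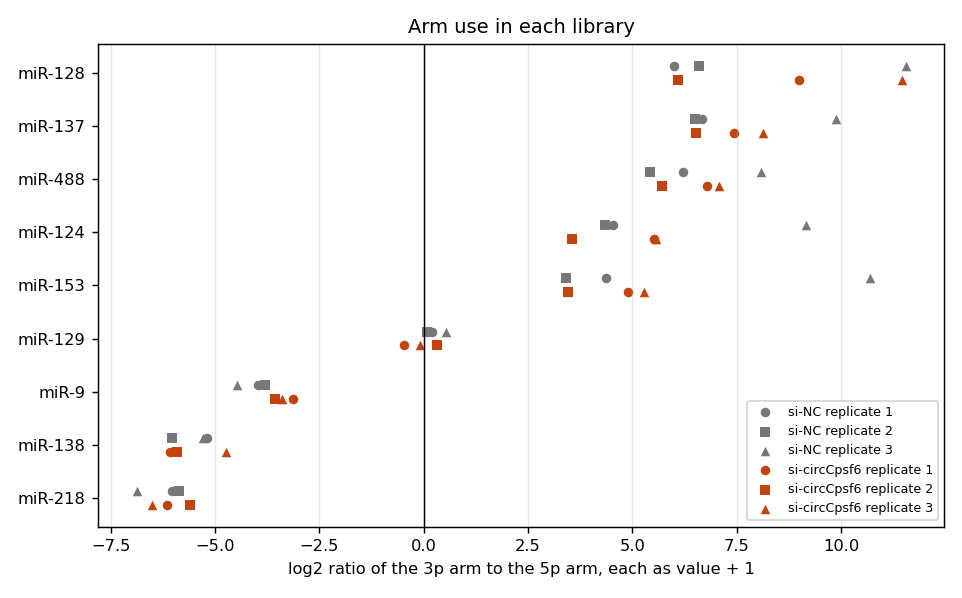
Log2 ratio of the 3p arm to the 5p arm (horizontal axis, each arm as value + 1, most abundant entry per arm) in each of 6 libraries for the 9 neuronal families with both arms (rows); grey is si-NC, orange si-circCpsf6, and the marker shape gives the replicate number. miR-129, drawn with miR-129-2-3p alone, lies around 0, between -0.47 and 0.54, and the grey triangle (si-NC replicate 3) lies farthest right for miR-137, miR-488, miR-124 and miR-153.

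Where gene copies could be told apart, the same copy of miR-218 and of miR-138 led in every library. miR-218-2-3p, from the Slit3 intron, exceeded miR-218-1-3p, from the Slit2 intron, in 6 of 6 libraries, by 2.37-fold to 13.3-fold. miR-218-1-3p was at 48, 19 and 77 with si-NC against 67, 41 and 113 with si-circCpsf6 (log2 change 0.70, SE 0.71, adjusted p = 0.904), so it varied between libraries while miR-218-2-3p stayed between 252 and 301. miR-138-1-3p exceeded miR-138-2-3p in 6 of 6 libraries, by 2.44-fold to 4.50-fold. For miR-129 the ratio of miR-129-2-3p to miR-129-1-3p ran from 0.691 to 1.63, and miR-129-2-3p was the higher in 4 of 6 libraries. These ratios compare reads of different sequences and need not equal the ratio of the transcripts.

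The remaining low entries gave no further difference that passed. miR-488-5p was at 93, 138 and 27 with si-NC against 40, 80 and 47 with si-circCpsf6 (log2 change -0.40, SE 0.72, or -1.08 without si-NC replicate 3). miR-137-5p was at 54, 54 and 19 against 49, 74 and 45 (0.50, SE 0.65). miR-129-1-3p was at 50, 80 and 19 against 55, 27 and 31 (-0.24, SE 0.73). The adjusted p-values of the 3 were 0.965, 0.945 and 0.992.

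Other brain-associated miRNAs, from a list of 21 names that does not include the members, did not pass either. Of 16 names with an entry, 29 entries were tested: 16 were higher and 13 lower after si-circCpsf6 (median log2 change 0.08). limma passed 0 of them, with 3 at an unadjusted p under 0.05, beside 6.22% of all 916 entries. Those 3 were miR-7a-2-3p and both arms of miR-708, which are not independent. The groups did not overlap for 7 (24.1%), against 11.7% of all entries and 16.1% of the 373 averaging at least 100. The 4 entries of this list with the highest means were miR-7a-5p and miR-7b-5p of neuroendocrine cells, miR-598-3p and miR-708-5p. miR-7a-5p was at 182067, 238295 and 88548 with si-NC against 237380, 364458 and 198948 with si-circCpsf6 (log2 change 0.72, SE 0.43, adjusted p = 0.735), with overlapping groups. miR-7b-5p was at 77306, 97695 and 45970 against 63035, 107713 and 63955 (0.11, SE 0.37, adjusted p = 0.992), also overlapping. miR-598-3p, the most even of them, was at 5280, 5170 and 5168 with si-NC against 5541, 5428 and 5292 with si-circCpsf6. The groups did not overlap, by a small margin (log2 change 0.06, SE 0.22, adjusted p = 0.992). miR-708-5p was at 936, 2548 and 606 against 3858, 8288 and 2802. Each si-circCpsf6 library lay above each si-NC library (log2 change 1.98, SE 0.58), and the adjusted p was 0.364.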

How the data were processed

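Small RNA was sequenced from 6 libraries, prepared with a TruSeq kit per the labels' protocols. The authors deposited normalized read numbers per entry (whole numbers, called normalized in the file headers), handled here as a score and not as counts, so that a test for normalized values was used. The deposited p-values and fold changes of the authors were not used. The genome build was mm9 per the submitters' processing notes, and what aligned, counted and normalized the reads is not given in the sources used here. Read depth is unknown.

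Members and lists were chosen with earlier results of these data known. The rule for named entries was to account for every member, with full values for those with a mean of 100 or more and the lead arms, and the 4 most abundant of the other brain-associated list. Of 178 entries repeating the values of an earlier one, those above 0 in 3 or more libraries, or named alike apart from the suffix, were merged, leaving 1046 of 1080 entries (no member was merged). The 916 with a mean of 1 or more, all 22 members among them, were compared on log2(value + 1) with limma 3.58.1 and a variance trend (R 4.3.3). The model held the group alone, and p-values were adjusted by Benjamini-Hochberg with a threshold of 0.05. Log2 changes on that scale understate changes of low entries. Arm ratios were tested likewise in 226 families with a summed mean of 10 or more, taking the most abundant entry per arm. The limma step was tested on simulated data with the means and spreads of these entries. It recovered 108 of 200 planted log2 changes of 3 (54%), with 7 false calls. An entry that did not pass is therefore not shown to be unchanged. Alternatives were other pseudocounts, filters and scalings, array weights, a replicate term, each library left out and, added after seeing the data, values under 20 set to 20 and removal of GC trends. Tables and plots used Python 3.11.15, pandas 2.3.3 and matplotlib 3.10.9.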

Additional observations from a re-analysis of the deposited data

How the results depend on the processing

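Over all alternatives the count of tested entries that passed remained 0 except with array weights (31 of 916) and with libraries left out. There it ran from 0 to 4, the 4 without si-NC replicate 3. The count of members that passed was 0 except with array weights (1 of 22, miR-138-5p, log2 change 1.14). The count of arm ratios that passed was 0 except with libraries left out, where it ran from 0 to 1, the 1 being without si-NC replicate 3 and no member. Of 22 members, 10 to 13 were higher in si-circCpsf6 under the alternatives, and 9 of 19 with GC trends removed. The median log2 change of the members was 0.24 without si-circCpsf6 replicate 2, against -0.06 to 0.10 with any other library left out. Of 132 member changes with a library left out, 16 reversed direction, and of 216 under the other alternatives 1 did, miR-218-5p with array weights (0.11); the causes were not tested.

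With libraries left out, the log2 changes that reversed ran from -1.08 to 0.080 for miR-488-5p, from -0.12 to 0.011 for miR-218-2-3p, from -0.80 to 0.21 for miR-129-1-3p and from -2.69 to 0.37 for miR-128-1-5p. They ran from -0.47 to 0.16 for miR-218-5p, from -0.48 to 0.27 for miR-129-5p, from -0.30 to 0.88 for miR-153-3p and from -0.16 to 0.80 for miR-137-3p. The summed member value in si-circCpsf6 was 0.821 to 1.22 of that in si-NC. miR-9-3p had no change to give with values under 20 set to 20.

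Adding the replicate number as a block changed no call, with 0 of 916 entries and 0 of 22 members passing and 87 unadjusted p-values under 0.05 against 57. Deviations of same-numbered libraries correlated above 0.1 in 2 of 3 pairs (0.047, 0.479 and 0.400), and 5 of 6 libraries correlated best with their own number. The best value of si-circCpsf6 replicate 1 was 0.047, and si-NC replicate 1 correlated best with si-circCpsf6 replicate 2 (0.184). Deviations were taken from group means, so these correlations are not independent and do not show pairing, which the labels do not give. Because read depth is not known, entries near 0, and all values under about 18 in si-NC replicate 3, set no level. Values not far above that bound in this library are uncertain too, as are the ratios and changes that use them. They include miR-137-5p and miR-129-1-3p (19 each), miR-129-5p (21), miR-488-5p (27) and miR-129-2-3p (31).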
